A study of Mus musculus with 4 samples.

Results

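The Cyp4a fatty acid hydroxylases of mouse liver were followed nucleus by nucleus in livers of fasted and fed mice. The 6 genes Cyp4a10, Cyp4a14, Cyp4a31, Cyp4a32, Cyp4a12a and Cyp4a12b were taken by symbol out of 32285 gene symbols counted. All 6 passed the filter on low counts in hepatocytes. They were selected on their counts in fasted against fed hepatocytes of these libraries, so that difference is described for them without a test. For the 6 genes, tests are given only for the position of the nuclei in the liver lobule and for its difference between fasted and fed. The position score holds none of the 6 genes. The second test draws on the same fasted and fed counts, so it is not independent of the choice. Genes of the surrounding pathways were tested between fasted and fed as well.

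The study profiled RNA of single liver nuclei in 4 droplet libraries, 2 from mice fasted for 16 to 24 h (fasted 1 and fasted 2) and 2 from fed control mice (fed 1 and fed 2). Each library was 1 preparation of nuclei from frozen liver pooled from 8 mice. Strain, sex, age and diet are not given in the sources used here. No source says that the 2 preparations of 1 group used different mice, so p-values measure the spread between preparations, which may be partly technical.

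CYP4A enzymes are cytochrome P450s of the endoplasmic reticulum that hydroxylate the terminal (omega) carbon of fatty acids, with electrons passed on by the reductase Por. Alcohol and aldehyde dehydrogenases turn the product into dicarboxylic acids, which peroxisomes shorten. Cyp4a10 and Cyp4a14 are textbook target genes of PPAR-alpha, the nuclear receptor that senses fatty acids reaching the liver in fasting. Cyp4a12a and Cyp4a12b are known as male-biased genes that respond to androgen and growth hormone, and Cyp4a12a hydroxylates arachidonic acid. Hepatocytes along the lobule differ, with portal cells near the incoming blood and central cells, rich in many P450s, near the outgoing vein.

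The genes lie in 1 cluster on chromosome 4 (mm10, GENCODE annotation), all protein-coding. In order they are Cyp4a12a (chr4:115299046-115332815, plus strand), Cyp4a12b (chr4:115411624-115439034, plus), Cyp4a14 (chr4:115486200-115496142, minus), Cyp4a10 (chr4:115518264-115533649, plus), Cyp4a31 (chr4:115563649-115579015, plus) and Cyp4a32 (chr4:115600969-115621602, plus). Cyp4a14 alone is on the minus strand. The coding stretch for the loop with the heme-binding cysteine, the signature of P450 enzymes, shows how alike the genes are at that place. It is printed 5′ to 3′ from the GENCODE transcripts, with bases that differ from Cyp4a10 in capitals.
Cyp4a10: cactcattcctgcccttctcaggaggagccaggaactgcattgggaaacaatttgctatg
Cyp4a31: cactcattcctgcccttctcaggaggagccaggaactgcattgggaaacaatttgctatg
Cyp4a32: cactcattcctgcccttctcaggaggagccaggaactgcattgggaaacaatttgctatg
Cyp4a12a: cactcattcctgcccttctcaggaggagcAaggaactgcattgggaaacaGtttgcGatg
Cyp4a12b: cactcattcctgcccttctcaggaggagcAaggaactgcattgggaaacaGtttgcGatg
Cyp4a14: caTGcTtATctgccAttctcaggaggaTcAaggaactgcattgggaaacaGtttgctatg

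Cyp4a10, Cyp4a31 and Cyp4a32 were identical over these 60 bases, the Cyp4a12 genes differed from them at 3 bases and Cyp4a14 at 9. Over the whole coding sequence, Cyp4a12a and Cyp4a12b were 98.5% identical, Cyp4a10 and Cyp4a32 97.2%, Cyp4a10 and Cyp4a31 96.6%, and Cyp4a14 between 74.9% and 75.9% identical to the others. No 60-base window of the Cyp4a14 transcript occurred in another transcript, so reads from its annotated transcript can be told apart at that length. Of such windows, 25.3% in Cyp4a10, 16.9% in Cyp4a31, 39.1% in Cyp4a32, 44.6% in Cyp4a12a and 45.2% in Cyp4a12b also occurred in another of the 6 genes. In the last 400 bases, where 3′ libraries take most of their reads, the shared part was 0% in Cyp4a10 and Cyp4a31, 51.9% in Cyp4a32, whose annotated transcript ends at its stop codon, and 45.2% in Cyp4a12a and in Cyp4a12b. The split of counts between Cyp4a12a and Cyp4a12b, and part of the Cyp4a32 count, are therefore uncertain. Overlap with intron sequence was not examined.

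Clusters named by marker genes gave 18835 hepatocyte nuclei, 5398, 4567, 5062 and 3808 in fasted 1, fasted 2, fed 1 and fed 2. Their summed unique molecular identifiers (UMIs, 1 per captured transcript) were 20961504, 19310968, 16837340 and 6777294. Fed 2 stood apart, with a median of 1282 UMIs per hepatocyte nucleus against 2554 to 3239 in the others, and with 4.22% of its UMIs from Gm42418, a gene overlapping ribosomal RNA sequence, against at most 0.893%. Fed 1 stood apart in another way, since a cluster led by the acute-phase genes Saa2, Saa1 and Orm1 and the chemokine gene Cxcl1 held 1765 of its 5062 hepatocyte nuclei, and 9, 2 and 3 nuclei of fasted 1, fasted 2 and fed 2. In the fed 1 nuclei of that cluster Cyp4a14 was at 1.88 CPM, Cyp4a10 at 3.25 CPM and Cyp4a12b at 9.59 CPM, and the part of this state in the results was not tested. Most hepatocyte clusters came mainly from 1 library. The libraries shared between 12 and 42 cell barcodes pairwise. Levels are given as counts per 1000000 UMIs (CPM) of the summed hepatocyte nuclei of a library. In bulk sums like these, fewer expressing cells and less RNA per cell cannot be told apart. Y-linked RNA was present in every library (Uty, a Y-linked histone demethylase, at 381, 253, 419 and 238 CPM), with Xist, the RNA of the inactive X, at most at 0.954 CPM.

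Fasting went with much higher levels of Cyp4a14, Cyp4a10 and Cyp4a31 in hepatocytes, and with higher levels of Cyp4a32 and Cyp4a12b. The groups overlapped for Cyp4a12a. Both fasted libraries lay above both fed ones for 5 of the 6 genes, which 20.6% of the 13987 genes tested did too. Nothing is read from this count, since the contrast had a part in the choice of the genes.

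**Figure D1:**
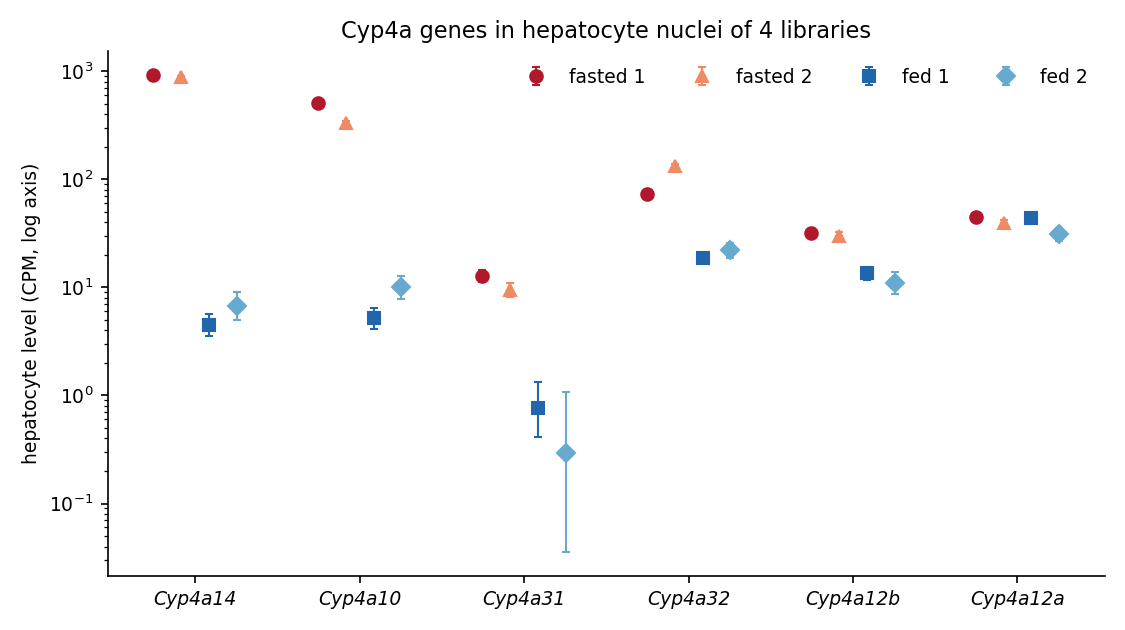
Level of each Cyp4a gene in the hepatocyte nuclei of each library, in CPM on a log axis. Points are libraries and bars are exact 95% Poisson intervals, which cover counting error only. Both fasted points lie above both fed points for every gene except Cyp4a12a, where fed 1 (44.0 CPM) lies between fasted 1 (44.6 CPM) and fasted 2 (39.0 CPM).

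Among the genes known to respond to PPAR-alpha, Cyp4a14, which makes an omega-hydroxylase of fatty acids, was at 916 and 888 CPM in fasted 1 and fasted 2 and at 4.51 and 6.79 CPM in fed 1 and fed 2. The fasted libraries were almost equal and the groups lay far apart, with means of 902 ± 19.7 CPM (SD, n = 2) and 5.65 ± 1.61 CPM (SD, n = 2). The log2 fold change between fasted and fed was 7.29 with a standard error of 0.46, or 6.95 without fed 1 and 7.67 without fed 2.

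Cyp4a10, its neighbour and another fatty acid hydroxylase, was at 509 and 334 CPM in the fasted and at 5.17 and 10.0 CPM in the fed libraries. Here the fasted libraries themselves differed, fasted 1 being the higher, while the groups did not overlap. The log2 fold change was 5.75 with a standard error of 0.54, or 5.28 without fed 1 and 6.37 without fed 2.

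Cyp4a31 was the least counted of the 6, with 268 and 182 UMIs in the fasted libraries and 13 and 2 in the fed ones. These counts are 12.8, 9.42, 0.772 and 0.295 CPM. The groups did not overlap, and the log2 fold change was 4.23 with a standard error of 0.63, which rests on 15 fed UMIs. It was 5.09 without fed 1 and 3.86 without fed 2.

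Cyp4a32 was at 72.9 and 133 CPM in the fasted and at 18.8 and 21.99 CPM in the fed libraries. Its order within the fasted group was the opposite of that of Cyp4a10, with fasted 2 the higher. The groups did not overlap, and the log2 fold change was 2.31 with a standard error of 0.43, or 1.76 without fasted 2.

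The pair known as male-biased is given apart, with counts that may be split unevenly between its near-identical members. Cyp4a12b was at 31.5 and 29.98 CPM in the fasted and at 13.5 and 11.1 CPM in the fed libraries, with no overlap and a log2 fold change of 1.29 (standard error 0.35). Cyp4a12a was at 44.6 and 39.0 CPM against 44.0 and 30.8 CPM, with overlapping groups and a log2 fold change of 0.13 (standard error 0.33) that was -0.04 without fed 2.

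Within a liver, hepatocyte nuclei were ordered from portal to central by a score of landmark genes that holds none of the Cyp4a genes. The score used 9 pericentral and 11 periportal landmarks on counts thinned to 1500 UMIs, so that only nuclei at or above that depth were placed, 4808, 4230, 4340 and 1570 in fasted 1, fasted 2, fed 1 and fed 2. The lowest and highest tertile of each library are called portal and central. The landmark Glul, glutamine synthetase of the cells next to the central vein, was at 15.1 and 8.77 CPM in portal and at 369 and 493 CPM in central nuclei of fasted 1 and fasted 2. In fed 1 and fed 2 it was at 10.0 and 6.24 against 321 and 521 CPM. Hal, the periportal histidine ammonia-lyase, was at 529 and 674 CPM in portal and at 83.3 and 73.2 CPM in central nuclei of the fasted libraries. The tertiles were thus well apart in both groups, by the genes that made the score. Scores from the odd-numbered and the even-numbered landmarks alone had correlations over nuclei of 0.549, 0.593, 0.515 and 0.504 in fasted 1, fasted 2, fed 1 and fed 2. Single nuclei are therefore placed with error. Median depth was 2919 and 3353 UMIs in portal and central nuclei of fasted 1, 3135 and 3666 in fasted 2, 2666 and 3118 in fed 1 and 2204 and 2389 in fed 2.

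Averaged over the 4 libraries, 5 of the 6 Cyp4a genes were higher in central than in portal hepatocytes at an adjusted p under 0.05 (edgeR quasi-likelihood test with library as a block, Benjamini-Hochberg over 12285 genes). Of all genes tested, 16.8% were called, 8.44% higher and 8.37% lower, and the median log2 difference was -0.01. In DESeq2, 5 of the 6 were called, against 8.36% of all genes. Central exceeded portal in all 4 libraries for Cyp4a10, Cyp4a32, Cyp4a12a and Cyp4a12b, as it did for 16.5% of the genes tested. Without fed 2, the shallow library, the same 5 genes passed, with log2 differences of 0.59 to 1.59. For Cyp4a10 the fasted libraries alone did not pass (log2 difference 0.17, edgeR adjusted p = 0.141). The average also hides a split in Cyp4a14. In CPM it was lower in central nuclei of both fasted libraries and higher in those of both fed ones, while in UMIs per nucleus, which are not divided by the larger UMI totals of central nuclei, central was not the lower in any library.

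Cyp4a12b had the largest log2 difference of the 6 in the average over 4 libraries. In fed hepatocytes alone it had 1.61, against 1.79 for Cyp4a10 and 1.73 for Cyp4a14, and these orders were not tested. Its level was at 17.8 and 50.5 CPM in portal and central nuclei of fasted 1, 12.1 and 48.7 in fasted 2, 7.71 and 21.3 in fed 1 and 4.16 and 20.5 in fed 2. Central nuclei held at least 2.76 times the portal level in each library. The log2 difference was 1.67 (standard error 0.15, edgeR adjusted p = 1.30e-08).

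Cyp4a12a was at 38.2 and 62.5 CPM in portal and central nuclei of fasted 1, 30.5 and 58.1 in fasted 2, 32.7 and 58.7 in fed 1 and 26.4 and 37.0 in fed 2. Central nuclei were higher in each library, though in fed 2, with 38 and 56 UMIs, the exact interval of the ratio (0.914 to 2.18) held 1. The log2 difference was 0.78 (standard error 0.10, edgeR adjusted p = 1.81e-06).

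Cyp4a32 was at 58.4 and 91.1 CPM in portal and central nuclei of fasted 1, 118 and 153 in fasted 2, 13.3 and 26.4 in fed 1 and 20.1 and 29.1 in fed 2. The central level was the higher in each library, by ratios of 1.296 to 1.98, though in fed 2, with 29 and 44 UMIs, the exact interval of the ratio (0.885 to 2.40) held 1. The log2 difference was 0.66 (standard error 0.11, edgeR adjusted p = 8.42e-05). Without fed 1 it was 0.49 with an adjusted p of 0.0509, the highest over its 13 alternatives, of which the lowest was 5.68e-09.

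Cyp4a10 was at 499.5 and 546 CPM in portal and central nuclei of fasted 1 and at 313 and 366 CPM in those of fasted 2, ratios of 1.09 and 1.17. In the fed libraries it was at 2.29 and 9.96 CPM in fed 1 and at 6.24 and 15.9 CPM in fed 2, ratios of 4.34 (exact 95% interval 2.26 to 9.17) and 2.54 (1.14 to 6.22). Fed nuclei thus showed the larger relative difference, on 11 and 58 UMIs in fed 1 and 9 and 24 in fed 2. The log2 difference averaged over the 4 libraries was 0.98 (standard error 0.15, edgeR adjusted p = 2.51e-05). Taken by group in the same fit, it was 0.17 (standard error 0.07, edgeR adjusted p = 0.141) in fasted hepatocytes, which did not pass. In fed hepatocytes it was 1.79 (standard error 0.29, edgeR adjusted p = 1.07e-04), so the average stands for neither group.

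Cyp4a14 was at 1034 and 858 CPM in portal and central nuclei of fasted 1 and at 978 and 831 CPM in those of fasted 2, ratios of 0.830 (exact 95% interval 0.801 to 0.860) and 0.850 (0.818 to 0.882). In fed 1 it was at 2.71 and 7.38 CPM (13 and 43 UMIs) and in fed 2 at 1.39 and 10.6 CPM (2 and 16 UMIs), ratios of 2.72 (1.44 to 5.52) and 7.63 (1.79 to 68.4). Per nucleus the fasted direction was not the same, with ratios close to 1 for which no interval was computed. Portal and central nuclei held 3.67 and 3.92 Cyp4a14 UMIs each in fasted 1 and 3.80 and 3.87 in fasted 2, ratios of 1.07 and 1.02, against 3.31 and 8.02 in fed 1 and fed 2. The averaged log2 difference of 0.73 (standard error 0.17, edgeR adjusted p = 0.00308, and 1.31 without fed 1) stands for neither group. Taken by group in the same fit, it was -0.26 in fasted hepatocytes (standard error 0.07, edgeR adjusted p = 0.0136). In fed hepatocytes the log2 difference was 1.73 (standard error 0.33, edgeR adjusted p = 8.04e-04).

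Cyp4a31 was between 8.95 and 13.9 CPM in all portal and central sums of the fasted libraries. In fed 1 it had 4 and 7 UMIs, and in fed 2 it had 0 in each, which allows up to 2.08 CPM in portal and 1.98 CPM in central nuclei (3 counts of the total). Its log2 difference of 0.32 (standard error 0.46, edgeR adjusted p = 0.754) did not pass, and at this depth no gradient was detectable.

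**Figure D2:**
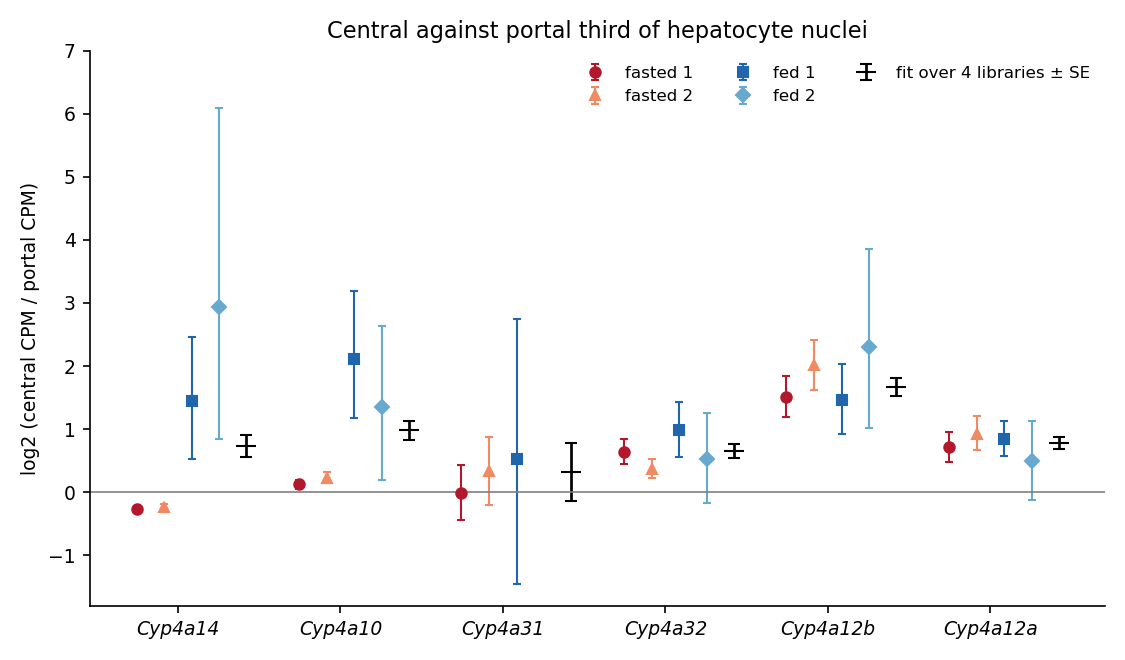
The log2 ratio of central to portal level for each gene in each library, with exact 95% intervals for counting error, and in black the average over the 4 libraries with its standard error from edgeR. Cyp4a12b lies above 0 in every library, while Cyp4a14 lies at -0.27 and -0.24 in fasted 1 and fasted 2 and at 1.45 and 2.93 in fed 1 and fed 2. Cyp4a31 has no point in fed 2, where both tertiles held 0 UMIs.

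Whether the gradient differed between fasted and fed livers was tested as an interaction in the same fit. 2 of the 6 genes passed, Cyp4a14 with a difference in log2 gradient of -1.99 (standard error 0.33, edgeR adjusted p = 0.0191) and Cyp4a10 with -1.63 (standard error 0.30, edgeR adjusted p = 0.0251). Of all 12285 genes, 0.114% passed in that direction, 0.0895% in the other and 0.204% in either. In fasted hepatocytes the relative central excess of Cyp4a10 was smaller than in fed ones. For Cyp4a14 the fasted ratio was below 1 in CPM and just above 1 per nucleus, and the fed ratios were larger on both scales. In DESeq2, 1 of the 6 passed (Cyp4a14, adjusted p = 0.0387), as did 0.0244% of all genes. Cyp4a32 had -0.35 (adjusted p = 0.853), Cyp4a31 -0.36, Cyp4a12a 0.06 and Cyp4a12b 0.12, none of which passed. No likeness between fasted and fed gradients follows from these p-values.

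Both calls rest on few fed UMIs. Without fed 2 the differences were -1.71 (adjusted p = 0.00615) for Cyp4a14 and -1.96 (6.06e-04) for Cyp4a10, and without fed 1 that of Cyp4a14 was -3.14 (0.0274). Both calls were lost when the score used only the odd-numbered landmarks (adjusted p = 0.0813 for Cyp4a14 and 0.123 for Cyp4a10). For Cyp4a10 the call was also lost in DESeq2 (0.163), with the lowest and highest quintile in place of tertiles (0.0739) and without fed 1 (0.446). The sign was negative in each of the 13 alternatives for both genes, from -3.14 to -1.29 for Cyp4a14 and from -1.96 to -1.01 for Cyp4a10. Adjusted p-values over these alternatives ran from 2.00e-04 to 0.0813 for Cyp4a14 and from 5.58e-04 to 0.446 for Cyp4a10.

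In finer steps the fasted gradient of Cyp4a14 in CPM was not a straight line. Over 10 equal steps from portal to central, it went in fasted 1 from 1171 CPM in the first to 694 CPM in the eighth and 1155 CPM in the last. In fasted 2 it went from 1047 CPM in the first to 789 CPM in the ninth and 892 CPM in the last. Both ends of the axis were therefore higher than the steps before the central end, more so in fasted 1. Cyp4a10 was level over most of the axis, between 446 and 548 CPM in the first 9 steps of fasted 1 and between 298 and 359.9 CPM in those of fasted 2, and was at 671 and 425 CPM in the last.

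Cyp4a12b was highest in the last step in every library. It went from 12.3 to 91.3 CPM between the first and last step of fasted 1 and from 9.34 to 71.5 CPM in fasted 2. In the fed libraries it went from 5.05 to 37.6 CPM and from 4.53 to 38.6 CPM. Cyp4a12a was at 92.4, 89.4, 73.3 and 52.2 CPM in the last step of fasted 1, fasted 2, fed 1 and fed 2, each the highest of its library.

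**Figure D3:**
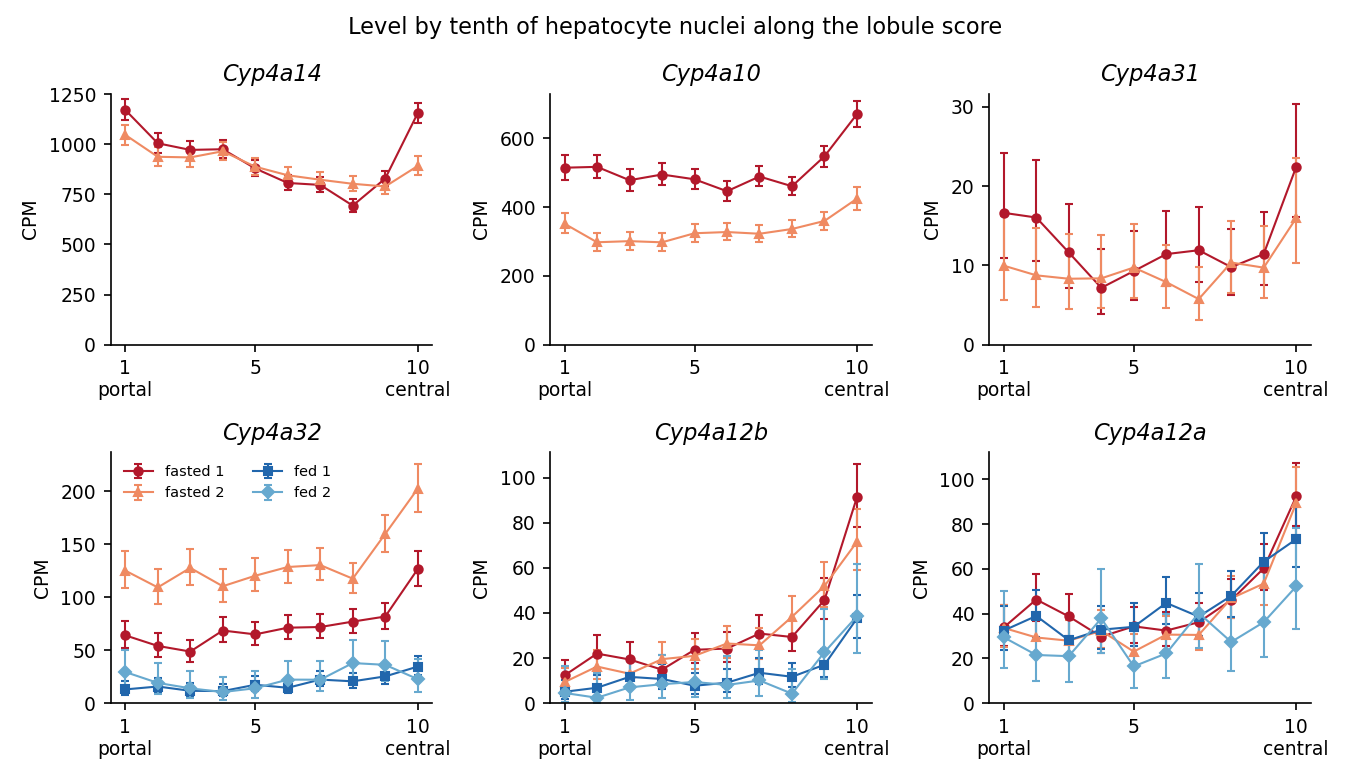
Level of each gene in 10 equal steps of hepatocyte nuclei along the lobule score, in CPM with exact 95% Poisson intervals, lines joining the steps of a library. The fed libraries are left out for Cyp4a14, Cyp4a10 and Cyp4a31, whose fed steps hold at most 34 UMIs. Cyp4a14 dips before the central end in both fasted libraries, and Cyp4a12b is highest in the last step of all 4.

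The nuclei next to the central vein formed clusters of their own, led by Slc1a2, Glul, Lgr5 and other genes of that ring. 1 such cluster held 696, 573 and 384 nuclei of fasted 1, fasted 2 and fed 2, and another 513 nuclei of fed 1. In the ring, Cyp4a10 was at 686, 401, 18.7 and 15.6 CPM in fasted 1, fasted 2, fed 1 and fed 2, against 509, 334, 5.17 and 10.0 CPM over all hepatocytes. Cyp4a12b was at 79.9, 68.3, 37.3 and 38.4 CPM there, and Cyp4a14 at 1165, 931, 11.4 and 13.2 CPM. The ring was thus higher than the library as a whole in all 4 libraries for each of these 3 genes, and also for Cyp4a12a. Cyp4a32 and Cyp4a31 were higher in the ring of fasted 1, fasted 2 and fed 1 but not of fed 2. There Cyp4a32 was at 21.6 CPM against 21.99 CPM over all hepatocytes, and Cyp4a31 had 0 UMIs. These clusters were built from all genes, so this is a description.

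Nucleus by nucleus, counts were compared after thinning each to 1500 UMIs. A Cyp4a14 UMI was present in 59.9% and 60.9% of hepatocyte nuclei of fasted 1 and fasted 2, and in 0.645% and 0.955% of those of fed 1 and fed 2. Without thinning the shares were 73.6%, 75.1%, 1.09% and 1.08%. The number per nucleus had a variance of 2.17 and 1.90 times its mean in the fasted libraries. Albumin, made by all hepatocytes, had 2.12 and 2.02, but at means of 7.32 and 3.61 UMIs against 1.43 and 1.36 for Cyp4a14. Apob had 1.33 and 1.35 (means 2.16 and 2.07), and Ttr 1.39 and 1.31 (means 0.783 and 0.661). The ratio depends on the mean, so the match with albumin does not show that Cyp4a14 was as even over nuclei, which was not tested.

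A Cyp4a10 UMI was present in 46.5% and 35.2% of fasted and 0.645% and 1.46% of fed nuclei. For Cyp4a32 the shares were 9.75%, 17.1%, 2.60% and 2.93%, and for Cyp4a12b 4.31%, 4.26%, 2.14% and 1.78%. Cyp4a12a was found in 6.01%, 5.93%, 5.78% and 4.71%. A Cyp4a31 UMI was found in 1.68% and 1.39% of fasted nuclei, in 4 of 4340 nuclei of fed 1 and in 0 of 1570 nuclei of fed 2, where 3 counts of the total would be 0.191% of nuclei with a UMI. This limits nuclei with a UMI at this depth, not nuclei that express the gene.

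These shares are not all expression by the nucleus itself. Endothelial nuclei, which should lack these enzymes, held a Cyp4a14 UMI in 42.2% and 39.3% of those deep enough to thin (116 and 84 nuclei of fasted 1 and fasted 2), and a Cyp4a10 UMI in 48.3% and 21.4%. Median depth before thinning was 809 and 888 UMIs for all endothelial nuclei against 2925 and 3239 for hepatocytes. For Cyp4a14 the hepatocyte share lay above the endothelial one in both libraries. For Cyp4a10 in fasted 1 it did not, since the hepatocyte share of 46.5% lay inside the exact interval of the endothelial one (38.9% to 57.7%). The 2 shares could not be told apart, but the endothelial one rests on the 116 of 2324 nuclei with at least 1500 UMIs. All 2324 together held 832 Cyp4a10 UMIs, against a mean of 1.98 per hepatocyte nucleus before thinning, and had 74.1% of the hepatocyte CPM. How many hepatocytes express Cyp4a10 is therefore not read from its share in fasted 1. For Cyp4a31, Cyp4a12a and Cyp4a12b the intervals of the endothelial shares held the hepatocyte shares in fasted 1, fasted 2 and fed 1. The same was true of Cyp4a32 in fasted 1 and fed 1 and of Cyp4a14 and Cyp4a10 in fed 1, so these shares could not be told from background with so few deep endothelial nuclei. In 63 endothelial nuclei of fed 1 neither a Cyp4a14 nor a Cyp4a10 UMI was found.

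**Figure D4:**
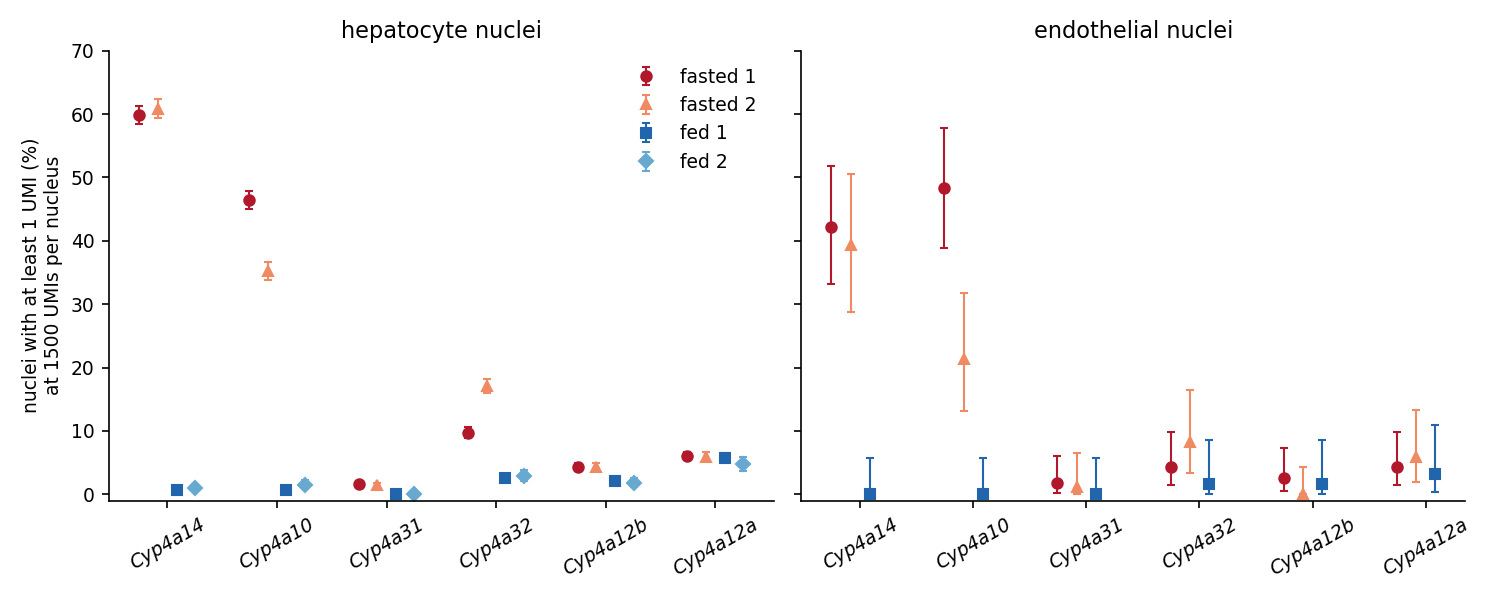
Share of hepatocyte (left) and endothelial nuclei (right) with at least 1 UMI of each gene at a fixed depth of 1500 UMIs, with exact 95% binomial intervals. In the fasted libraries Cyp4a14 was found in 59.9% and 60.9% of hepatocyte and in 42.2% and 39.3% of endothelial nuclei. Endothelial nuclei of fed 2 are not drawn, since only 9 reached the depth.

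All other cell types of the fasted libraries carried these transcripts as well. Cyp4a14 ran from 261 to 900 CPM over stellate cells, cholangiocytes, macrophages, endothelial, T, B, dendritic and mesothelial cells of the fasted libraries. In endothelial nuclei it was at 686 and 487 CPM, which is 74.9% and 54.8% of the hepatocyte level, and Cyp4a10 was at 74.1% and 49.3% of it. The 12 hepatocyte reference genes, such as Alb, Apob and Ttr, had a median of 55.8% (range 39.9% to 119%) in fasted 1 and 56.4% (45.0% to 203%) in fasted 2. All 6 Cyp4a genes lay within that range in both libraries. The Cyp4a counts outside hepatocytes are therefore not read as expression there. Per nucleus, endothelial nuclei of fasted 1 held 0.651 Cyp4a14 UMIs, against the 3.67 and 3.92 of portal and central hepatocyte nuclei given above. Free RNA is shared by all nuclei of a library, and its part in the flatter fasted gradient was not tested.

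**Figure D5:**
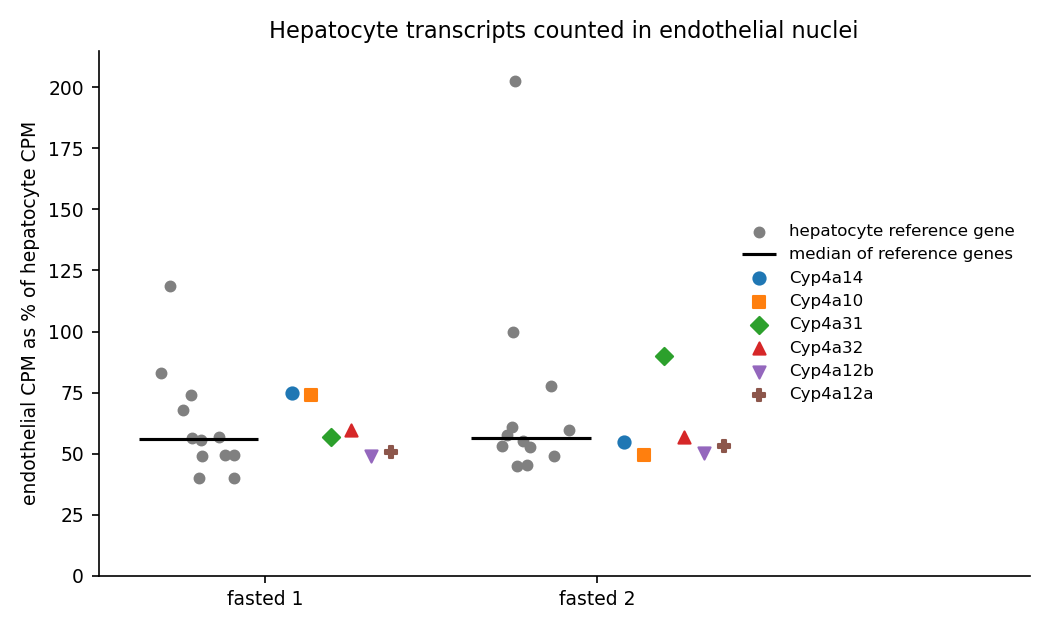
Level in endothelial nuclei as a percentage of the level in hepatocyte nuclei of the same fasted library. Grey points are the 12 hepatocyte reference genes, the black line is their median (55.8% and 56.4%), and coloured points are the Cyp4a genes, which lie within the range of the reference genes.

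Within fasted hepatocytes, Cyp4a14 and Cyp4a10 tended to be counted in the same nuclei. At 1500 UMIs, a Cyp4a10 UMI was found in 52.6% of nuclei with a Cyp4a14 UMI and in 37.4% of those without in fasted 1, and in 39.9% and 27.96% in fasted 2. The correlation over nuclei was 0.24 in fasted 1 and 0.19 in fasted 2. For Cyp4a14 with Cyp4a32 it was 0.04 in each, and for Cyp4a12a with Cyp4a12b 0.05 and 0.02. Nuclei of 1 library share its free RNA, so these are descriptions.

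The pathway around the enzymes was read from lists of genes. Of 28 PPAR-alpha targets outside the Cyp4 family, 26 were tested between fasted and fed hepatocytes. None passed an adjusted p of 0.05 in edgeR, where 0.00715% of the 13987 genes tested did. In edgeR 9 had an unadjusted p under 0.05, as did 6.78% of all genes, and 3 passed in DESeq2, all higher in fasted, against 1.21% of all genes. Fasted was above fed for 24 of the 26, against 49.5% of all genes, with a median log2 fold change of 0.89 against -0.01 over all genes. Cidec, a lipid droplet protein, was at 41.6 and 70.6 CPM in fasted and at 18.3 and 3.69 CPM in fed libraries (2.34, standard error 0.72). G0s2, an inhibitor of the lipase ATGL, was at 72.3 and 45.8 against 11.3 and 15.1 CPM (2.11, standard error 0.40). Acot1, a cytosolic acyl-CoA thioesterase, was at 10.3 and 9.68 against 1.78 and 2.95 CPM (2.05, standard error 0.53).

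Along the lobule these targets differed in both directions. Of 25 tested, 7 were higher in central nuclei (among them Acot1, 1.299, and Acot4, 0.62) and 3 lower, against 8.44% and 8.37% of all genes, with a median log2 difference of 0.03. In the interaction, 1 of 25 passed, against 0.204% of all genes, G0s2 with -1.35 (standard error 0.28, edgeR adjusted p = 0.0495), in the same direction as Cyp4a14 and Cyp4a10, and none did in DESeq2.

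Electron donors and the steps after omega-hydroxylation were counted next. Por, the reductase that feeds all microsomal P450s, was at 1447 and 1958 CPM in fasted and at 930.1 and 791 CPM in fed libraries (log2 fold change 0.96, standard error 0.33). Cyb5r1 (-1.004) and Cyb5r3 (-0.87), reductases that feed cytochrome b5, had values below 0. None of the 5 donors passed between fasted and fed in edgeR or DESeq2. An unadjusted p under 0.05 in edgeR was reached by 1, against 6.78% of all genes. In central nuclei, 3 of the 5 were higher, against 8.44% of all genes, Por by 0.63 (edgeR adjusted p = 2.42e-09), Cyb5a by 0.78 (2.12e-10) and Cyb5b by 0.33 (5.06e-05).

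Of 24 genes of the later steps, fasted was above fed in 21, against 49.5% of all genes, with a median log2 fold change of 0.33. None passed in edgeR or DESeq2, and the 2 with an unadjusted p under 0.05 in edgeR are a share near the 6.78% of all genes. Values were 1.39 for Acot4, 1.16 for Ehhadh, the bifunctional enzyme of peroxisomal oxidation, and 1.10 for Acot8, a peroxisomal thioesterase, with standard errors of 0.80, 0.37 and 0.37. Central nuclei were higher in 8 and lower in 5, against 8.44% and 8.37% of all genes. Eci2, a peroxisomal enoyl-CoA isomerase chosen here after its value was seen, passed the interaction with -0.60 (edgeR adjusted p = 0.0191), the only gene of the 24 to do so. Eci2 was also higher in central nuclei (0.54).

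The receptor itself and its partners were listed too. Of 12 genes of PPAR-alpha, its partner Rxra and their co-regulators, none passed between fasted and fed in edgeR or DESeq2. An unadjusted p under 0.05 in edgeR was reached by 1, a share near the 6.78% of all genes. The median log2 fold change of the 12 was -0.09. Ppargc1a, the fasting-induced co-activator, was at 266 and 276 CPM in fasted and at 144 and 57.3 CPM in fed libraries (1.42, standard error 0.45). Along the lobule, 1 of the 12 was higher and 1 lower in central nuclei, shares near the 8.44% and 8.37% of all genes. Ppargc1a was the lower one (-0.97, edgeR adjusted p = 3.57e-11) and Rxra the higher (0.63, edgeR adjusted p = 0.00245).

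Of the other 14 Cyp4 genes, 6 were tested between fasted and fed and 3 of these were above 0, near the 49.5% of all genes. None passed in edgeR or DESeq2, and 1 had an unadjusted p under 0.05 in edgeR, against 6.78% of all genes. Cyp4f14, a leukotriene hydroxylase, was at 28.3 and 23.6 CPM in fasted and at 52.6 and 50.0 CPM in fed libraries (-1.02, standard error 0.32). Cyp4f16 had -1.20 and Cyp4v3 -0.76. Of 5 tested along the lobule, 2 were higher and 1 lower in central nuclei in edgeR, against 8.44% and 8.37% of all genes. The lower one was Cyp4v3 (-0.28, edgeR adjusted p = 0.00152). None of the 5 passed in DESeq2, against 8.36% of all genes.

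The Cyp4a12 genes were set beside other male-biased genes and the growth hormone pathway. Of 12 male-biased genes, 3 were above 0 between fasted and fed, against 49.5% of all genes, with a median log2 fold change of -1.67. None passed in edgeR, 7 had an unadjusted p under 0.05, against 6.78% of all genes, and 4 passed in DESeq2, against 1.21%, all lower in fasted. Hsd3b5, a steroid dehydrogenase, was at 9.83 and 1.66 CPM in fasted and at 225 and 78.5 CPM in fed libraries, a log2 fold change of -4.75 (standard error 0.94). Selenbp2, a selenium-binding protein, had -3.88 and Ugt2b38, a glucuronosyltransferase, -3.91. Cyp4a12a had 0.13 and Cyp4a12b 1.29. In central nuclei 6 of the 12 were higher and 2 lower, against 8.44% and 8.37% of all genes.

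Of 11 growth hormone pathway genes, 4 were above 0, against 49.5% of all genes, and none passed in edgeR. An unadjusted p under 0.05 was reached by 3, against 6.78% of all genes. In DESeq2 2 passed, both lower in fasted, against 1.21%. Cish, a feedback inhibitor of the pathway, had -2.45, Onecut1, a liver transcription factor, -2.46, and Socs2, another feedback inhibitor, -1.18. Along the lobule, 2 of the 11 were higher and 3 lower in central nuclei, against 8.44% and 8.37% of all genes, with a median of -0.05. Socs2 was among the higher ones, by 1.00 (edgeR adjusted p = 4.52e-07). Of 12 female-biased genes 6 were tested between fasted and fed, with 5 above 0, against 49.5% of all genes, and a median of 0.75. None of these passed in edgeR or DESeq2, and 2 had an unadjusted p under 0.05 in edgeR, against 6.78% of all genes. Cyp17a1, a steroid hydroxylase, had 2.28, at no more than 5.54 CPM.

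The genes whose levels ran most like Cyp4a14 were sought over the 12 sums of 3 tertiles in 4 libraries, by Pearson's correlation of log2 CPM with a pseudocount of 1, among 12305 genes. The closest outside the family were Dpys, an enzyme of pyrimidine breakdown (0.994), Ech1, an enoyl-CoA isomerase of fatty acid oxidation (0.989), Cdo1, cysteine dioxygenase (0.987), Gm4952 (0.980) and Gstz1, an enzyme of tyrosine breakdown (0.980). Dpys was between 645 and 692 CPM in the fasted sums and between 287 and 389 CPM in the fed ones. Within the family the values were 0.985 for Cyp4a10, 0.967 for Cyp4a31, 0.939 for Cyp4a32, 0.703 for Cyp4a12b and 0.213 for Cyp4a12a. The 12 points come from 4 libraries, so these values mostly state which genes separate fasted from fed.

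The genes closest to Cyp4a12a were others than those closest to Cyp4a14. They were Mid1, a ubiquitin ligase (0.943), Slc43a3, a nucleobase transporter (0.935), the non-coding RNA gene Mirg (0.928), Gm13872 (0.925) and Ubb, a ubiquitin gene (0.889), against 0.720 for Cyp4a12b. Mid1 was at 17.1, 11.1, 21.1 and 5.55 CPM in portal nuclei of fasted 1, fasted 2, fed 1 and fed 2 and at 97.4, 56.0, 66.9 and 22.5 CPM in central ones.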

How the data were processed

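Nuclear RNA of 4 mouse liver libraries was analysed. Per the submitters' processing notes, reads were processed with Cell Ranger 6.0 on mm10, and the deposited matrices hold raw UMI counts per gene symbol and barcode. The sources used here do not say whether intron reads were counted. Of the stored entries, 13.2% to 17.0% per matrix were 0, which a plain matrix does not store, and they were taken as 0. Total UMIs were 30955600, 24139311, 22924339 and 8078755 in fasted 1, fasted 2, fed 1 and fed 2.

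The filter on nuclei asked for 500 genes or more and no more than 5% of UMIs from mitochondrial genes. Doublets were scored with Scrublet (scanpy 1.11.5) and removed by rank, 0.8% per 1000 barcodes, which left 10183, 6626, 8832 and 4177 nuclei. Leiden clusters (resolution 1, 2000 variable genes, 30 components, no batch integration) were named from marker genes. Position used landmark z-scores within each library. Of 12 landmarks at each end, 3 pericentral and 1 periportal were detected in too few nuclei.

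UMI counts as deposited were summed per library and tested with edgeR 4.0.16 (TMM, filterByExpr, quasi-likelihood, R 4.3.3), library by library as replicates and with Benjamini-Hochberg adjustment at 0.05. DESeq2 1.42.0 was an alternative, with other scaling, filters, doublet rules, landmarks, quantiles and each library left out. On simulated counts with 200 changed genes, all were recovered between fasted and fed, with 3.38% false calls. The planted changes were large, lay only in genes with enough counts, and had a noise level that was set and not taken from these libraries. Recovery there checks that the code runs and gives no recovery rate for the real libraries. In the libraries themselves, edgeR called 1 of 13987 genes between fasted and fed. What share of real differences it finds at this number of libraries was not tested. Intervals are exact 95% ones, the limit behind a count of 0 is 3 counts of the total, and both cover counting error only.

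The 6 genes and all lists were chosen with earlier results of these data known. Named genes are the 6, the 3 tested genes of each list with the largest absolute fold change between fasted and fed, landmark and reference genes, the 5 closest genes of each likeness search and sex chromosome genes; 1 gene that the rule names is not reported here. List genes past the threshold along the lobule were named after their values were seen. Only coding sequences were taken from GENCODE transcripts, and promoters and proteins were not used here.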

Additional observations from a re-analysis of the deposited data

Results flagged for a closer look

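The portal-to-central difference of Cyp4a14 differed between fasted and fed hepatocytes, by -1.99 on the log2 scale (standard error 0.33, edgeR quasi-likelihood adjusted p = 0.0191). It was looked at again because a test of the difference between groups itself passed. In CPM, central nuclei were lower than portal ones in 2 of 2 fasted libraries and higher in 2 of 2 fed ones. In UMIs per nucleus the ratios were close to 1 in the fasted libraries, 1.07 in fasted 1 and 1.02 in fasted 2. They were 3.31 and 8.02 in fed 1 and fed 2. No interval was computed for ratios per nucleus.

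The same test passed for Cyp4a10, with -1.63 (standard error 0.30, edgeR adjusted p = 0.0251). Central nuclei were higher in all 4 libraries, and the fed ratios (4.34 and 2.54) were above the fasted ones (1.09 and 1.17). For both genes the fed side rests on 2 to 58 UMIs per tertile and library. Other causes of the difference, depth and free RNA among them, were not tested.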

How the results depend on the processing

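Genes called between fasted and fed hepatocytes numbered 1, and 160 in DESeq2, 274 with no filter on low counts, 2 with the replicate number as a block and 0 with stored zeros counted as 1 (edgeR, with 1134 at an unadjusted p under 0.05), and ran from 4 to 283 with a library left out (10 without fasted 1, 4 without fasted 2, 283 without fed 1 and 194 without fed 2). Replicate numbers carry no stated batch. Over 13987 genes, the deviations of fasted 1 and fed 1 from their group means had a correlation of 0.55. With 2 libraries per group, fasted 2 and fed 2 only mirror these deviations, so this is 1 comparison and does not establish pairing. Between central and portal nuclei, 2065 were called, 1027 in DESeq2 and 1411 to 2340 with a library left out. In the interaction, 25 were called, 3 in DESeq2, 49 with the automatic doublet threshold, 100 with no filter, 16 with odd landmarks, 58 with position from 1000 UMIs, 65 with stored zeros as 1 and 17 to 195 with a library left out (121 without fed 1 and 195 without fed 2).

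For the Cyp4a genes, 76 of 78 alternative values of the central-to-portal difference kept direction and side of the threshold, as did 64 of 78 of the interaction, and 65 of 66 of the fasted-to-fed value, which was not tested for these genes, kept direction. Among these, signs turned only for values that did not pass or were not tested, and not all of them were near 0. Over its alternatives the interaction of Cyp4a31 ran from -1.14 to 0.65, against -0.36 in the main fit. Cyp4a31 had -0.062 along the lobule with quintiles, and in the interaction 0.43 with quintiles and 0.65 with odd landmarks, where Cyp4a12b had -0.28 with quintiles and -0.087 with even landmarks. With a library left out, the interaction ran from -0.51 to 0.13 for Cyp4a31, from -0.052 to 0.35 for Cyp4a12a (-0.020 without fasted 2) and from -0.54 to 0.38 for Cyp4a12b (-0.11 without fasted 2). Cyp4a12a between fasted and fed ran from -0.042 to 0.33. In UMIs per nucleus in place of CPM, an alternative chosen after the data were seen, the log2 central-to-portal ratio became 0.094 and 0.029 for Cyp4a14 in fasted 1 and fasted 2 and 0.36 for Cyp4a31 in fasted 1, all below 0 in CPM. Causes were not tested. Depth limits the fed values of Cyp4a14, Cyp4a10 and Cyp4a31 most, and fed 2 held the fewest UMIs.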
